A study of Homo sapiens with 6 samples.

Results

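The genes described here are the class I major histocompatibility (MHC) heavy chains HLA-B, HLA-C, HLA-E and HLA-F and their light chain B2M. Also included are TAP1, TAP2 and TAPBP, which serve peptide loading, and the class I transactivator NLRC5. All 9 genes were chosen by name from the protein-coding rows of the deposited expression table. They make up 9 of 58735 genes and 9 of 19951 protein-coding genes. Expression was measured by RNA-seq in NCI-N87, an established gastric carcinoma cell line, in 6 libraries. The 3 shCtrl libraries (shNC in the labels) came from cells with the control lentivirus, which the paper's methods describe as the empty vector. The 3 shS1#1 libraries (shScamp1 in the labels) came from cells with a lentivirus that carries a short hairpin RNA against SCAMP1. SCAMP1 is a membrane protein of secretory and endocytic vesicles. An effect of carrying any hairpin and an effect of SCAMP1 loss cannot be told apart in these groups. Both populations were exposed to virus for 24 h in the presence of polybrene, selected as stable populations with puromycin (2 μg/ml) and harvested at about 80% confluence. The labels number the libraries of a group as biological replicates but do not say whether they came from separate infections, and they cover a single hairpin, so p-values describe the spread between these libraries.

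Class I molecules carry short peptides from inside the cell to its surface, where cytotoxic T cells and natural killer cells read them. Peptides are cut by the proteasome, pumped into the endoplasmic reticulum by the TAP1 and TAP2 transporter, and placed on the heavy chain and B2M with the help of tapasin, the product of TAPBP. NLRC5 is a transactivator that acts at class I promoters, and interferons raise the transcription of the pathway through STAT2 and the interferon regulatory factors, among others.

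The promoters of these genes are shown because class I promoters are known for short interferon and NF-kappaB elements through which the pathway is regulated as a group. Of the 9 genes, 7 had an entry in the RefSeq promoter table (GRCh38.p14), which spans 250 bases before to 50 bases after each start. These 7 genes had 8 promoters there, and the matches of each gene lay at a single start site. HLA-E and NLRC5 had no entry. The capitals mark, on either strand, the core of an interferon-stimulated response element (GAAANNGAAA), a shorter form of it (GAANNGAAA), the kappaB cores GGGATTCC and GGGACTTTCC, and the CCAAT box. For HLA-B, HLA-C and B2M the stretch with these elements is printed from 5′ to 3′ on the strand of the gene. For the other genes the response element alone is printed, because the full stretch overlapped annotated exons of the same gene. The printed elements of HLA-F, TAP1 and TAPBP lie before the RefSeq start but inside the annotated span of the gene.

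HLA-C, chr6:31272136-31272292, minus strand: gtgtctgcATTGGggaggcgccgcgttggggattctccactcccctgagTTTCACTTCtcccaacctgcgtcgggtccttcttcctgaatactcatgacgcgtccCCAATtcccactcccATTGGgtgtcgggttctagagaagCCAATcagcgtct
HLA-B, chr6:31357223-31357363, minus strand: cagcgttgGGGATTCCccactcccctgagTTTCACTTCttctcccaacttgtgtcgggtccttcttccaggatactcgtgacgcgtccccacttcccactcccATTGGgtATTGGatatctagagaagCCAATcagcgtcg
B2M, chr15:44711365-44711480, plus strand: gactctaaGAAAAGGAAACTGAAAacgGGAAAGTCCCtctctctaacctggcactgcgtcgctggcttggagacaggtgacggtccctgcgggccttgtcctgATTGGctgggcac
HLA-F, chr6:29723273-29723292, plus strand: cagagTTTCTCTTTCtctcc
TAP1, chr6:32853818-32853843, minus strand: gccgcTTTCGATTTCGCTTTCcccta
TAP2, chr6:32838783-32838807, minus strand: ctgggGAAGCGAAAGCGAAAgctgc
TAPBP, chr6:33314079-33314103, minus strand: tggagGAAAGTGAAAGTGAAAggag

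The core GAAANNGAAA was present in 5 of the 7 genes (B2M, HLA-F, TAP1, TAP2 and TAPBP) and in 3.57% of all 35116 promoters in the table. The shorter core GAANNGAAA, chosen after the sequences were seen, was present in HLA-B, HLA-C and TAP2 and in 7.66% of all promoters. In TAP2 the shorter core overlaps the longer one by letters, while HLA-B and HLA-C held the shorter one alone. A kappaB core written GGGANTTCC was present in TAPBP and in 1.85% of promoters. The other kappaB cores, also added after the sequences were seen, were GGGATTCC in HLA-B (1.12% of promoters) and GGGACTTTCC in B2M and TAP1 (0.191%). The CCAAT box, the element bound by the NF-Y factor, was present in 5 of the 7 genes and in 34.6% of promoters. The start sites of TAP1 and of PSMB9, a subunit of the immunoproteasome, lie 488 bases apart on opposite strands. Genes were counted when any of their promoters held a match, whereas the shares are of single promoters. These are matches of letters in a window, and binding was not measured.

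The libraries held 14311769 to 15988700 reads on genes, as recovered from the deposited FPKM (fragments scaled to gene length and sequencing depth). The target of the hairpin, SCAMP1, had 12.6, 12.1 and 11.5 FPKM in shCtrl and 1.70, 1.37 and 1.99 FPKM in shS1#1 libraries (log2 fold change -2.78, adjusted p = 0.000248 by limma). Of 15556 genes tested, 1372 were called higher and 805 lower in shS1#1, and with libraries scaled by total reads the numbers were 1138 and 1268. All 6 epithelial markers were expressed, and 5 of them (KRT8, KRT18, KRT19, CDH1 and CLDN4) were called higher, with summed levels of 4327 to 4544 FPKM in shCtrl and 7906 to 8634 FPKM in shS1#1 libraries. Of 10 immune cell markers, 0 reached 0.5 FPKM on average, 3 were at 0 in every library, and their sum was 0.772 to 0.954 FPKM in shCtrl and 0.667 to 0.873 FPKM in shS1#1 libraries. Of 7 stromal and endothelial markers, COL1A1 alone reached that level, and 2 were at 0 in every library, with sums of 0.693 to 0.888 and 1.10 to 1.25 FPKM. The part of the marker shifts in the results below was not tested.

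Replicate 2 of shS1#1 stood apart from the other libraries, and this touched several of the 9 genes. Its mitochondrial share of reads was 9.21%, against 6.09% to 6.78% elsewhere. Over 11523 protein-coding genes, its deviation from the other libraries of its group correlated with the log2 length of the longest coding transcript at r = 0.60, whereas r was -0.59 and -0.38 in shS1#1 replicates 1 and 3 and between -0.14 and 0.08 in the shCtrl libraries. These values are across genes, which are not independent replicates, and within a group the 3 deviations are not independent of each other. The median deviation of replicate 2 was -0.40 for the 2508 genes with transcripts below 2000 bases and 0.26 for the 3017 genes above 5000 bases, on the log2 scale. HLA-B, HLA-C, HLA-F and B2M have transcripts of 1547 to 1705 bases and were below the other shS1#1 libraries there, B2M by 0.77 (percentile 8.09 of all genes), HLA-F by 0.58, HLA-B by 0.56 and HLA-C by 0.33 log2 units. The transcripts of HLA-E (2601 bases), TAP1 (2959), TAP2 (5684) and NLRC5 (6822) are longer. For these genes replicate 2 differed from the mean of replicates 1 and 3 by at most 0.10 log2 units. TAPBP, at 3759 bases, was 0.25 lower in replicate 2. Each of the 9 genes is therefore also described without this library and after removal of the trends with length and GC content in each library, an alternative chosen after the data were seen. What set replicate 2 apart was not tested.

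**Figure D1:**
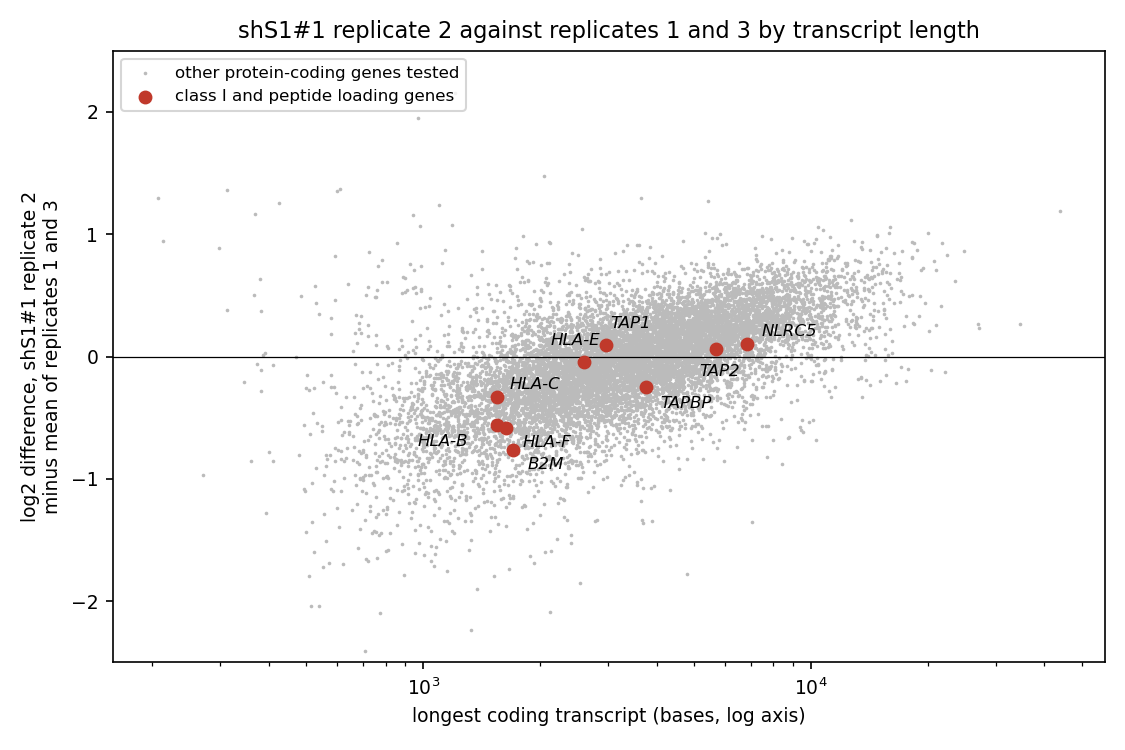
Log2 difference of shS1#1 replicate 2 from the mean of replicates 1 and 3 (vertical axis) against the longest coding transcript in bases (horizontal log axis) for 11523 protein-coding genes, with the 9 class I and peptide loading genes in red and 1 other gene outside the vertical range. The 4 genes with transcripts of 1547 to 1705 bases lie between -0.33 and -0.77, and the 4 genes HLA-E, TAP1, TAP2 and NLRC5 lie within 0.10 of 0.

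All 9 genes had higher mean levels in SCAMP1 shRNA cells, by 1.23 to 1.82 times in FPKM. By limma on log2(FPKM + 0.1), 4 of the 9 genes (HLA-C, HLA-E, TAP1 and NLRC5) were called higher at an adjusted p below 0.05, against 8.82% of all genes tested, and 0 were called lower, against 5.17%. At an unadjusted p below 0.05 all 9 genes were higher and 0 lower, against 16.1% and 14.7% of all genes. By voom on the recovered reads 4 were called higher and 0 lower, against 10.4% and 7.33%. None exceeded the absolute log2 fold change of 1 that the study's own rule asks for. The fold change was positive for 9 of 9 genes and for 47.6% of all genes, with medians of 0.55 and -0.02 on the log2 scale. In 8 of the 9 genes all 3 shS1#1 libraries lay above all 3 shCtrl libraries, which held for 20.4% of all genes. When shS1#1 replicate 2 was left out, 8 of the 9 genes (all but TAP2) were called higher, against 14.9% of genes, and the median rose to 0.75. After removal of the length and GC trends 6 of 9 were called, against 11.4% of genes. All 9 genes passed the filter on low expression.

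**Figure D2:**
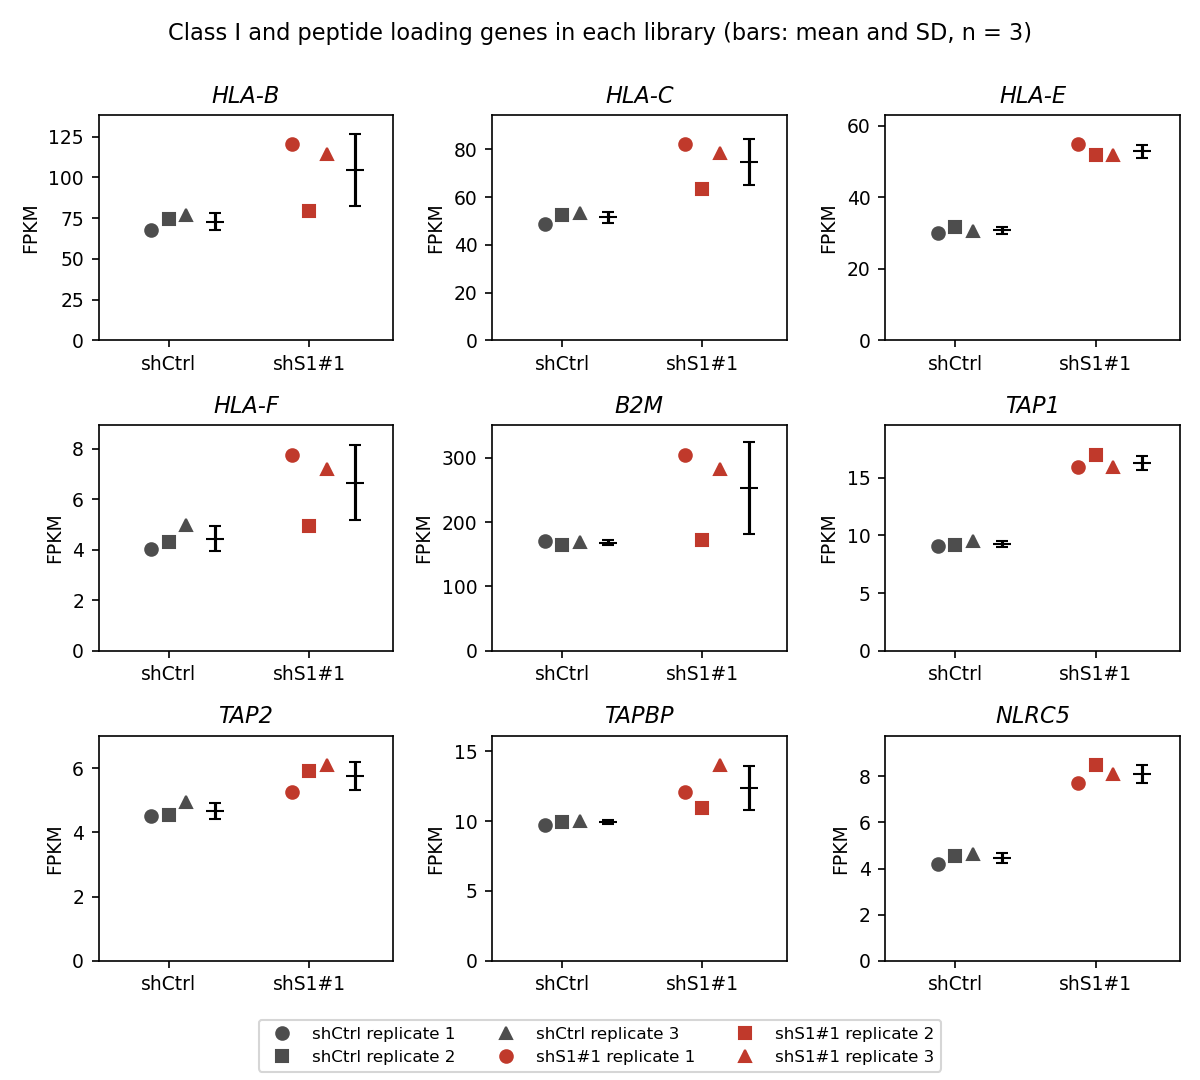
FPKM of the 9 genes (vertical axes, from 0) in the 3 shCtrl and 3 shS1#1 libraries, with circles, squares and triangles for replicates 1, 2 and 3 and bars for the mean and SD (n = 3). The groups of HLA-E, TAP1 and NLRC5 lie far apart, while B2M, HLA-B and HLA-F have shS1#1 replicate 2 (square) close to the shCtrl level, at 172, 79.3 and 4.96 FPKM.

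HLA-E, the heavy chain that presents leader peptides of other class I molecules to natural killer cells, had the largest fold change among the heavy chains, without a test between them. The gene (ENSG00000204592, chr6:30489467-30494205, plus strand) was at 30.0, 31.7 and 30.5 FPKM in shCtrl and at 54.7, 51.8 and 51.8 FPKM in shS1#1 libraries. Every shS1#1 library was far above every shCtrl library, and replicate 2 was level with replicate 3. The log2 fold change was 0.78 ± 0.061 (SE, n = 3 per group), with an adjusted p of 0.00100 by limma. The rise was 0.79 both without replicate 2 and after trend removal (adjusted p = 0.000244 and 0.000424).

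HLA-B and HLA-C, the classical heavy chains that present peptides to cytotoxic T cells, had smaller fold changes than HLA-E and a wider spread in shS1#1. HLA-C (ENSG00000204525, chr6:31268749-31272130, minus strand) was at 48.8, 52.4 and 53.4 FPKM in shCtrl and at 82.0, 63.5 and 78.3 FPKM in shS1#1 libraries. The groups did not overlap, with shS1#1 replicate 2 the lowest of its group, and HLA-C was called higher (log2 fold change 0.53 ± 0.11, SE, adjusted p = 0.0275). The call was lost when any library but shS1#1 replicate 2 was left out (adjusted p up to 0.116) and it had an adjusted p of 0.000786 without shS1#1 replicate 2 and 0.000586 after trend removal.

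HLA-B (ENSG00000234745, chr6:31269491-31357188, minus strand) was at 67.4, 74.4 and 76.9 FPKM in shCtrl and at 120, 79.3 and 114 FPKM in shS1#1 libraries. Its groups were separated only by the small gap between 76.9 and 79.3 FPKM. With all libraries the fold change did not pass the test (log2 fold change 0.50, 95% interval 0.10 to 0.90, adjusted p = 0.10), whereas it did without replicate 2 (0.69, adjusted p = 0.00136) and after trend removal (0.57, adjusted p = 0.00757). The annotated span of HLA-B reaches into HLA-C, with 35 shared exonic bases, and its exons share 542 bases with AL671883.2 on the opposite strand. Of stretches of 50 bases in the longest coding transcript, 2.54% in HLA-B, 6.71% in HLA-C and 5.13% in HLA-E also occur in transcripts of other genes. Reads of these alleles were aligned to reference alleles that may differ from those of the cell line, so levels between the heavy chains are less certain than changes within a gene.

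HLA-F, a non-classical heavy chain with a role in natural killer cell recognition, was the least expressed of the heavy chains, with 278 to 493 reads per library. Its level (ENSG00000204642, chr6:29722775-29738528, plus strand) was 4.04, 4.30 and 4.99 FPKM in shCtrl and 7.77, 4.96 and 7.23 FPKM in shS1#1 libraries. The groups overlapped, because shS1#1 replicate 2 fell just below the highest shCtrl library. The log2 fold change was 0.55 (95% interval 0.11 to 0.99, adjusted p = 0.0980), and it was 0.75 without replicate 2 (adjusted p = 0.00465) and 0.62 after trend removal (adjusted p = 0.0126). Its exons share 701 bases with AL645939.1 and 535 bases with HLA-F-AS1 on the opposite strand, and the strand setting of the counting is not given in the sources used here, so reads of these genes cannot be told apart.

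B2M, the light chain that every class I heavy chain needs for a stable fold, had the most reads of the 9 genes (14330 to 27068 per library) and the largest spread in shS1#1. It lies at chr15:44711487-44718877 on the plus strand (ENSG00000166710) and was at 171, 164 and 169 FPKM in shCtrl and at 305, 172 and 282 FPKM in shS1#1 libraries. Replicates 1 and 3 were well above every shCtrl library, and replicate 2 exceeded the highest of them by less than 1 FPKM. The coefficient of variation was 2.18% in shCtrl and 28.0% in shS1#1 libraries. With all libraries the change missed the adjusted threshold (log2 fold change 0.55, 95% interval 0.03 to 1.06, adjusted p = 0.146). It was 0.80 without replicate 2 (adjusted p = 0.000265) and 0.59 after trend removal (adjusted p = 0.0527). With all 6 libraries it passed the test only under quantile normalization among the alternatives tried (0.62, adjusted p = 0.0445). The ratio of the summed FPKM of the 4 heavy chains to that of B2M in the same library was 0.949 ± 0.0629 in shCtrl and 0.974 ± 0.161 in shS1#1 libraries (SD, n = 3 each, p = 0.9, exact two-sided permutation test, smallest possible p 0.1), with 1.16 in shS1#1 replicate 2. The mean log2 difference of this ratio was 0.03, and without that library it was -0.11. The level of the ratio depends on the gene lengths used for FPKM, so it is not a ratio of transcript numbers.

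TAP1 and TAP2 encode the subunits of the peptide transporter and lie near each other on chromosome 6. TAP1 (ENSG00000168394, chr6:32845209-32853978, minus strand) was at 9.06, 9.13 and 9.51 FPKM in shCtrl and at 15.9, 17.0 and 15.9 FPKM in shS1#1 libraries. All shS1#1 libraries were above all shCtrl libraries with little spread, and replicate 2 was the highest. TAP1 rose by a log2 fold change of 0.81 ± 0.063 (SE, adjusted p = 0.000997), with 0.78 without replicate 2 and 0.81 after trend removal, and both of these passed the test.

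TAP2 (ENSG00000204267, chr6:32821833-32838780, minus strand) was at 4.51, 4.54 and 4.94 FPKM in shCtrl and at 5.25, 5.90 and 6.10 FPKM in shS1#1 libraries. The groups did not overlap, but the gap was narrow and the change did not pass the test (log2 fold change 0.29, 95% interval 0.09 to 0.50, adjusted p = 0.0728). It did not pass without replicate 2 (adjusted p = 0.0647) or after trend removal (adjusted p = 0.109). The ratio of TAP1 to TAP2 was 2.01, 2.01 and 1.92 in shCtrl and 3.04, 2.88 and 2.61 in shS1#1 libraries. It was higher in every shS1#1 library, by 0.52 log2 units (p = 0.1, exact two-sided permutation test, the smallest p that 3 against 3 allows), and by 0.51 without replicate 2. TAP2 shares 2064 of its 6390 exonic bases (32.3%) with a read-through gene on its own strand, AL669918.1, which was listed at 0 in every library, so the TAP2 level is uncertain. TAP1 shares 456 exonic bases with PSMB8-AS1 on the opposite strand.

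TAPBP, which encodes tapasin, the chaperone that bridges the transporter and the class I molecule, had a smaller fold change than TAP1. It lies at chr6:33299694-33314387 on the minus strand (ENSG00000231925) and was at 9.75, 9.95 and 10.0 FPKM in shCtrl and at 12.1, 10.9 and 14.0 FPKM in shS1#1 libraries. The shCtrl values were nearly equal, and the shS1#1 values were all higher but scattered. The log2 fold change of 0.31 (95% interval 0.06 to 0.55) had an adjusted p of 0.0950 with all libraries and of 0.0752 after trend removal, and passed the test without replicate 2 (0.39, adjusted p = 0.0118).

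NLRC5, the class I transactivator, had the largest fold change of the 9 genes in the fit of all libraries. It lies at chr16:56989485-57083531 on the plus strand (ENSG00000140853) and was at 4.21, 4.56 and 4.61 FPKM in shCtrl and at 7.72, 8.49 and 8.10 FPKM in shS1#1 libraries. The groups were clearly apart, with replicate 2 the highest shS1#1 library. The log2 fold change was 0.85 ± 0.075 (SE, adjusted p = 0.00145), with 0.81 without replicate 2 (adjusted p = 0.000793) and 0.75 after trend removal (adjusted p = 0.000594).

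**Figure D3:**
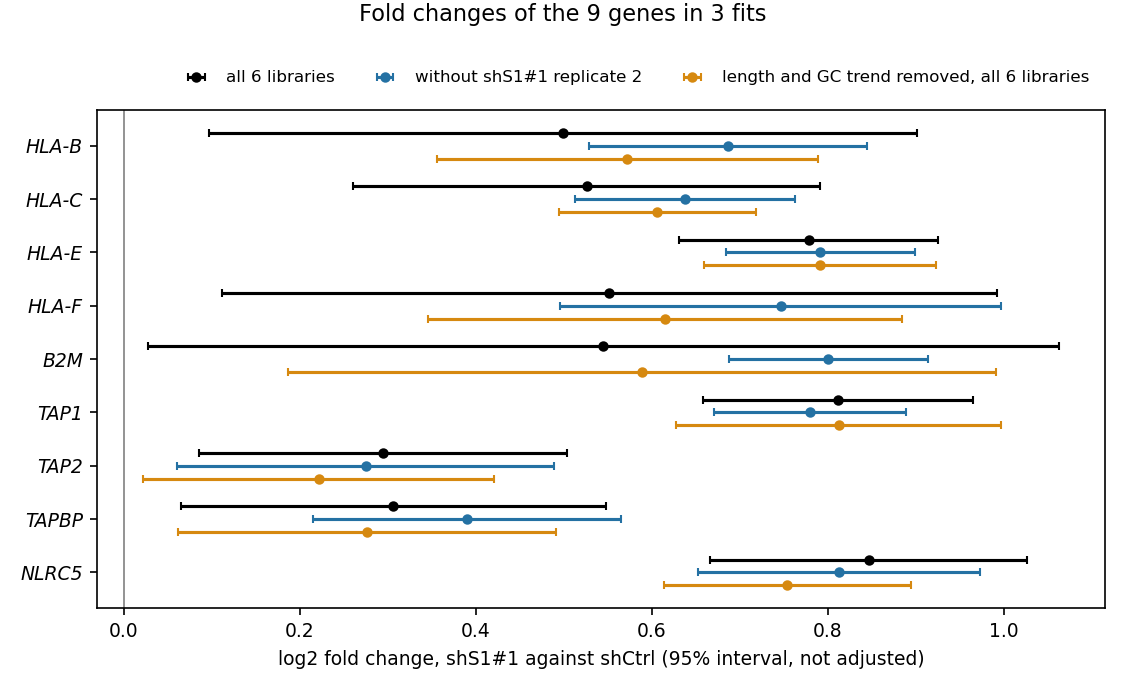
Log2 fold change of shS1#1 against shCtrl (horizontal axis) of the 9 genes in 3 fits, namely all 6 libraries (black), without shS1#1 replicate 2 (blue) and after removal of length and GC trends (orange), with 95% intervals that are not adjusted for the number of genes. HLA-E, TAP1 and NLRC5 keep values between 0.75 and 0.85 in the 3 fits, whereas B2M moves from 0.55 to 0.80 and TAP2 stays between 0.22 and 0.29.

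In length-scaled levels (FPKM), the order in shCtrl was B2M, HLA-B, HLA-C, HLA-E, TAPBP and TAP1, with no overlap between neighbours, followed by TAP2, NLRC5 and HLA-F, whose values overlapped at means of 4.66, 4.46 and 4.44 FPKM. In shS1#1 libraries HLA-B and HLA-C overlapped, and TAP1 (mean 16.3 FPKM) stood above TAPBP (12.3 FPKM) rather than below it. At the lower end were NLRC5, HLA-F and TAP2, with means of 8.10, 6.65 and 5.75 FPKM. HLA-F overlapped both NLRC5 and TAP2, which did not overlap each other. The FPKM of B2M is scaled to a gene length of 6079 bases, the union of its exons, while its longest coding transcript has 1705 bases. Its level per transcript is therefore understated against the other genes. These lengths were 4342 and 1635 bases for HLA-F and 3051 and 1547 bases for HLA-B, but 2975 and 2601 bases for HLA-E. The order of the genes depends on these lengths.

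The other genes of the pathway were taken from 6 lists with 71 genes, of which 57 passed the filter on expression. In these, 8 genes were called higher and 4 lower, beside 8.82% and 5.17% of all genes. Without shS1#1 replicate 2 the numbers were 21 and 5, beside 14.9% and 13.4% of all genes. Each called gene named from these lists was also called, in the same direction, without that library and after trend removal. The median log2 fold change of the lists lay between -0.21 and 0.35. Over the 6 fits that each dropped a library, STAT2 and CTSS kept their calls in 6, IFNAR1 in 5 and MR1 in 4. PSMB10, ERAP1, THOP1, RFXAP, NFYA, IFNGR1 and AZGP1 kept theirs in 1 or 2, always including the fit without shS1#1 replicate 2.

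**Figure D4:**
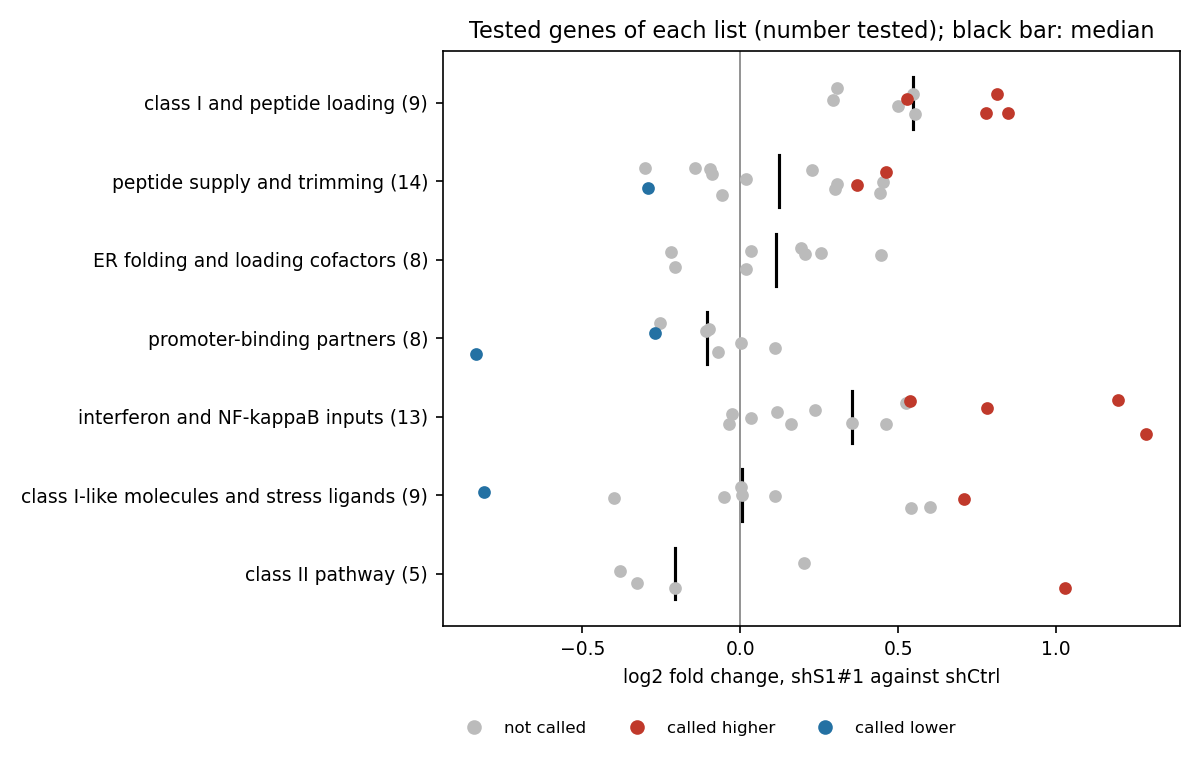
Log2 fold change of shS1#1 against shCtrl (horizontal axis) of each tested gene in the class I and peptide loading group and in 6 pathway lists, with red for called higher, blue for called lower, grey for not called and a black bar for the median. The 9 genes have a median of 0.55, the interferon and NF-kappaB inputs 0.35 and the remaining lists medians between -0.21 and 0.12.

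Of 14 genes that cut, trim or destroy peptides, 2 rose and 1 fell, beside 8.82% and 5.17% of all genes. PSMB10, a catalytic subunit of the immunoproteasome, rose from 5.50 ± 0.238 to 7.63 ± 0.956 FPKM (SD, n = 3, log2 fold change 0.46, adjusted p = 0.0386), and ERAP1, the aminopeptidase that trims peptides in the endoplasmic reticulum, from 5.78 ± 0.365 to 7.49 ± 0.389 FPKM (0.37, adjusted p = 0.0299). THOP1, a cytosolic peptidase that degrades peptides, fell from 10.8 ± 0.428 to 8.80 ± 0.396 FPKM (-0.29, adjusted p = 0.0394). The immunoproteasome subunits PSMB8 and PSMB9 did not pass with all libraries (log2 fold changes 0.23 and 0.31, adjusted p = 0.412 and 0.345) and were called higher without replicate 2 (0.43 and 0.52, adjusted p = 0.00297 and 0.0174). The ratio of TAP1 to its head-to-head neighbour PSMB9 was 2.32 ± 0.287 in shCtrl and 3.38 ± 1.10 in shS1#1 libraries, with 4.65 in replicate 2 (log2 difference 0.51, p = 0.1, exact two-sided permutation test, the smallest possible), and the difference was 0.25 without that library.

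Of 8 folding factors and loading cofactors of the endoplasmic reticulum, 0 were called with all libraries in limma, including calreticulin (CALR, -0.21, adjusted p = 0.229), calnexin (CANX, 0.03, adjusted p = 0.859) and the disulfide isomerase PDIA3 (-0.22, adjusted p = 0.264). Of all genes, limma called 8.82% higher and 5.17% lower. At an unadjusted p below 0.05, 2 of the 8 were higher and 0 lower, beside 16.1% and 14.7% of all genes. By voom 0 were called, beside 10.4% higher and 7.33% lower. TAPBPL, a tapasin-related peptide editor, was at 1.38 ± 0.229 FPKM in shCtrl and at 1.97 ± 0.596 FPKM in shS1#1 libraries (0.45, adjusted p = 0.279) and passed without replicate 2 (0.70, adjusted p = 0.0279).

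Of 8 genes for factors that sit with NLRC5 on class I promoters, 0 rose and 2 fell in limma, beside 8.82% and 5.17% of all genes. The same numbers held at an unadjusted p below 0.05 (16.1% and 14.7% of all genes) and by voom (10.4% and 7.33%). RFXAP, a subunit of the RFX complex, fell from 5.94 ± 0.495 to 3.31 ± 0.658 FPKM (log2 fold change -0.84, adjusted p = 0.0157), and NFYA, a subunit of the factor that binds the CCAAT box, fell from 9.39 ± 0.282 to 7.77 ± 0.112 FPKM (-0.27, adjusted p = 0.0355). The further RFX subunits RFX5 and RFXANK did not pass (-0.10 and -0.11, adjusted p = 0.373 and 0.523).

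Of 13 tested interferon and NF-kappaB inputs, 4 rose and 0 fell in limma, beside 8.82% and 5.17% of all genes. By voom 6 rose and 0 fell, beside 10.4% and 7.33%. At an unadjusted p below 0.05, 7 rose and 0 fell, beside 16.1% and 14.7%. STAT2, a transcription factor of the type I interferon response, was at 4.97, 5.12 and 5.12 FPKM in shCtrl and at 11.9, 11.0 and 12.4 FPKM in shS1#1 libraries (log2 fold change 1.20, adjusted p = 0.000510). Its fold change exceeded those of all 9 class I and loading genes, and the call was kept when any 1 library was left out (adjusted p up to 0.00724). The interferon receptor chains IFNAR1 and IFNGR1 rose by log2 fold changes of 0.78 and 0.54 (adjusted p = 0.00903 and 0.0408). The adjusted p of IFNAR1 was 0.0502 without shCtrl replicate 1, and that of IFNGR1 was at most 0.148 and above 0.05 without any library but shS1#1 replicate 2. IRF1, a factor that binds the response element, was at 1.81 ± 0.0450 and 2.56 ± 0.444 FPKM, and the groups did not overlap. It did not pass with all libraries (0.46, adjusted p = 0.0811) or after trend removal (0.44, adjusted p = 0.0702). Without shS1#1 replicate 2 it was called higher (0.60, adjusted p = 0.00758). The NF-kappaB subunits NFKB1 and RELA had log2 fold changes of -0.03 and 0.03 (adjusted p = 0.808 and 0.793).

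Of 9 tested class I-like molecules and ligands of the NKG2D receptor, 1 rose and 1 fell with all libraries, beside 8.82% and 5.17% of all genes. Without shS1#1 replicate 2, 3 rose and 1 fell, beside 14.9% and 13.4%. The ligands ULBP2 and RAET1L did not pass with all libraries (adjusted p = 0.0898 and 0.0980). They were called higher without replicate 2 (0.82 and 0.72, adjusted p = 0.00199 and 0.00798) and after trend removal (adjusted p = 0.0240 and 0.0259). ULBP1, ULBP3 and MICA passed in none of these fits. MR1, which presents vitamin B metabolites, rose from 1.67 ± 0.166 to 2.79 ± 0.190 FPKM (log2 fold change 0.71, adjusted p = 0.0108), and AZGP1, a secreted class I-like protein, fell from 3.83 ± 0.316 to 2.18 ± 0.523 FPKM (-0.81, adjusted p = 0.0362). Of 14 class II pathway genes, 9 were under the filter, CIITA, the class II transactivator, among them. CTSS, a lysosomal protease of antigen processing, was the class II gene called, and rose from 3.95 ± 0.456 to 8.13 ± 0.188 FPKM (1.03, adjusted p = 0.00178). HLA-DRA was low, at 1.28 ± 0.390 and 0.979 ± 0.165 FPKM, and did not pass (-0.33, adjusted p = 0.407). As these are bulk libraries, a change in all cells and a change in the share of cells that express a gene cannot be told apart.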

How the data were processed

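RNA-seq of NCI-N87 cells, 3 shCtrl and 3 shS1#1 libraries, was used. The authors deposited FPKM per gene and library. The submitters' processing notes name HISAT2 2.0.5, featureCounts 1.5.0-p3, DESeq2 1.20.0 and hg38, and coordinates of all 58735 genes equalled GENCODE 29. Read length and strand setting are not given in the sources used here. Multiplied by gene length, 100% of values were whole multiples of a step per library (tolerance 0.05), which gave read numbers. FPKM already carried the authors' scaling between libraries.

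Genes that averaged 0.5 FPKM or more were tested with limma 3.58.1 (R 4.3.3, eBayes with trend) on log2(FPKM + 0.1), with Benjamini-Hochberg adjustment over 15556 genes and a call at an adjusted p below 0.05. The pseudocount understates fold changes of low genes. Recovered reads were tested only with voom. Scripts were tested on simulated data. Ratios were compared by exact permutation tests (Python 3.11.15, scipy 1.17.1). RefSeq promoters were searched for motifs on both strands. The 9 genes, the lists and the named genes (every called gene of the lists except 1 that is counted but not reported here, genes needed to describe a list, and the 5 nearest profiles) were chosen with earlier results of these data known. Same-numbered libraries of the groups did not deviate together (r from -0.035 to 0.067). Alternatives covered the pseudocount, the filter, scaling, trend, gene classes, the replicate block and leaving out each library.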

Additional observations from a re-analysis of the deposited data

How the results depend on the processing

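Of 162 values of the 9 genes under the alternatives, 0 changed direction, 146 kept their side of the threshold, 8 lost the call (all HLA-C) and 8 gained it. HLA-E, TAP1 and NLRC5 were called in 18 of 18 alternatives, HLA-C in 10, HLA-B in 3, HLA-F and B2M in 2 each, TAPBP in 1 and TAP2 in 0. Leaving out each library in turn gave 3 to 8 of the 9 genes called higher and 0 lower, 3 to 21 pathway genes higher and 0 to 5 lower, and 651 to 2296 genes higher and 166 to 2078 lower overall. The highest numbers came without shS1#1 replicate 2. At an unadjusted p below 0.05, 9 of the 9 genes, 18 pathway genes and 2498 genes overall were higher and 2284 lower. With the replicate block, 704 genes were higher and 254 lower, with 3 of the 9 genes and 4 pathway genes higher and 0 pathway genes lower (HLA-C adjusted p = 0.0764). The numbers only name libraries here, and the block takes up residual degrees of freedom. No filter on expression gave 514 genes lower, with 5 pathway genes higher and 1 lower. Without the mean-variance trend 1 pathway gene was lower. Scaling by total reads gave 1268 genes lower. After removal of length and GC trends 1496 genes were lower and 13 pathway genes higher. Among the called pathway genes, 158 of 216 values kept the call, 58 lost it and 0 reversed. The cause of these changes was not tested. With 278 to 493 reads per library, counting error is largest for HLA-F among the 9 genes.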

Other observations

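The protein-coding genes outside the lists whose values lay nearest to the median profile of the 9 genes were UPK3B, LGALS3, MYEOV, TSPAN1 and TMEM184A, among 11456 candidates. Likeness was the Euclidean distance over the 6 libraries of log2(FPKM + 0.1), centred on the shCtrl mean of each gene, and ranged from 0.10 to 0.12. The median profile of the 9 genes was 0.78, 0.30 and 0.69 log2 units above the shCtrl mean in shS1#1 replicates 1, 2 and 3. LGALS3, which encodes galectin-3, was at 44.5, 46.0 and 46.6 FPKM in shCtrl and at 76.6, 59.7 and 71.8 FPKM in shS1#1 libraries. TSPAN1, a tetraspanin, was at 173, 176 and 175 FPKM in shCtrl and at 297, 229 and 284 FPKM in shS1#1 libraries. All 5 genes were called higher by limma, with log2 fold changes of 0.55 to 0.62 and adjusted p of 0.0142 to 0.0343. They were chosen for this likeness, so these values are a description.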
